A study of Mus musculus with 10 samples.

Results

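Transcripts of the splicing machinery and of RNA-binding splicing factors were described as the 75 genes, of 23393 gene symbols in the table, whose symbol begins with 1 of 7 prefixes: Srsf (11 genes), Hnrnp (18), Snrp (12), Sf3a (3), Sf3b (5), Lsm (13) and Prpf (13). They were compared between Riok2hKO libraries (5) and WT libraries (5), with and without WT replicate 1, in which Lsm4 is low. The cells were mouse CD4+ T cells cultured towards the Th22 fate, the helper T cell state that makes interleukin-22, and sorted for a tdTomato reporter of Il22. Riok2hKO cells carried 1 floxed and 1 intact Riok2 allele (Riok2f/+), and WT cells were Riok2+/+. Both groups also carried Vav1cre/+, a Cre recombinase driven by the blood-lineage gene Vav1, and Il22tdtomato/+, and both were of the C57BL/6 strain at an age of 10 weeks. Cre under Vav1 acts throughout the blood lineage and not in T cells alone, so the mice carried the Riok2 deletion in their other blood cells too. Whether each library had its own mouse or culture is not in the labels, so p-values reflect the variation among these libraries, part of which may be technical.

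Introns are removed from nascent transcripts by the spliceosome, which is built on each intron from small nuclear ribonucleoproteins (snRNPs), each a small RNA in a coat of proteins. Snrp genes encode proteins of the snRNPs, among them the Sm proteins that form a ring around the snRNA. Sf3a and Sf3b genes encode the part of the U2 snRNP that holds the branch point, Lsm genes encode Sm-like proteins that ring the U6 snRNA or act in mRNA decay, and Prpf genes encode processing factors that assemble and drive the catalytic machine. SR proteins (Srsf) and heterogeneous nuclear ribonucleoproteins (Hnrnp) bind the transcript itself and influence which exons are kept, the SR proteins often by promoting an exon and the hnRNPs often by silencing one. Activated T cells use this layer to switch exons of surface proteins such as CD45.

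Values are TPM, the length-normalised share of each transcript in a library, given as mean ± SD of 5 libraries a group where not given per library, and depth is unknown because TPM keeps no read totals. Riok2 itself was at 13.6 ± 1.71 TPM in Riok2hKO and 28.3 ± 1.57 TPM in WT (SD, n = 5 each), 48.3% of the WT mean (two-sided exact permutation test, p = 0.00794, the smallest the design allows). Between 14183 and 14623 genes were above 0 TPM in a Riok2hKO library and between 13948 and 14695 in a WT library. WT replicate 1 stood apart: its median correlation with its own group was 0.991, against 0.994 to 0.995 for the other 9 libraries, and 122 of 10332 tested genes (1.18%) lay 1 log2 unit or more under the average of WT replicates 2 to 5 in it. Each member that depends on it is given with and without it. Of the T cell markers, 6 were in the table and summed to 1973 to 2037 TPM in Riok2hKO libraries and 2116 to 2147 TPM in WT libraries, and Cd3d, Cd3g and Lck fell. CD8 and cytotoxic markers (5 in the table) summed to 12.7 to 15.8 TPM in Riok2hKO and 18.5 to 21.6 TPM in WT. B cell (5), myeloid (5), dendritic (4) and erythroid (4) markers summed to at most 2.35 TPM in Riok2hKO and 3.09 TPM in WT, with Hbb-b1 at 0, and all 4 neutrophil and mast cell markers were at 0. The part of these marker differences in the splicing results was not tested.

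Most splicing-family transcripts were at similar levels in Riok2hKO and WT cells, and the called members had small fold changes. The median absolute log2 fold change was 0.05 for members and 0.09 for all tested genes. In bulk samples, fewer cells of a kind and less RNA per cell cannot be told apart. Of the 75 genes, 73 passed the filter of at least 1 TPM in at least 5 libraries; Srsf12 (0.158 ± 0.0867 TPM in Riok2hKO and 0.302 ± 0.164 TPM in WT) and Snrpn (0.294 ± 0.168 and 0.342 ± 0.228 TPM) did not. With limma on log2(TPM + 1) and Benjamini-Hochberg adjustment over all tested genes, 9 members rose and 1 fell in Riok2hKO at an adjusted p under 0.05. These 10 are 13.7% of the 73, where 17.1% of all tested genes were called (9.58% higher and 7.55% lower). In this fit 12.3% of members rose and 1.37% fell, and the difference from all genes was not tested. The median log2 fold change of members was 0.03 against −0.0060 for all tested genes, and 46 of 73 were above 0. The 9 that rose were Hnrnpul1, Hnrnpl, Hnrnpd, Hnrnpa2b1, Srsf5, Srsf2, Sf3a2, Prpf19 and Prpf4b, and the 1 that fell was Snrpf. All tested genes, the background throughout, were not matched to the members for level. A mean of at least 10 TPM was reached by 67 of the 73 members and by 6337 of the 10332 tested genes. In a fit with that mean required, 9 members rose and 1 fell, with Hnrnpa3 called in place of Hnrnpd. Over all genes of that fit, 680 rose and 724 fell.

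In the fit without WT replicate 1, 13 members rose and 1 fell (19.2% of the 73), where 17.0% of 10288 tested genes were called (9.99% higher and 7.01% lower). Lsm4, Lsm12, Hnrnpa3, Prpf38b and Snrpd1 were called in that fit and not in the fit of all libraries, and Hnrnpd was called in the fit of all libraries only. The call of Lsm4 there is a description, since its own low level singled out the library left out. TPM of the 2 groups did not overlap in 11 members with all libraries (background 14.6%) and in 13 without WT replicate 1 (background 17.0%).

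**Figure D1:**
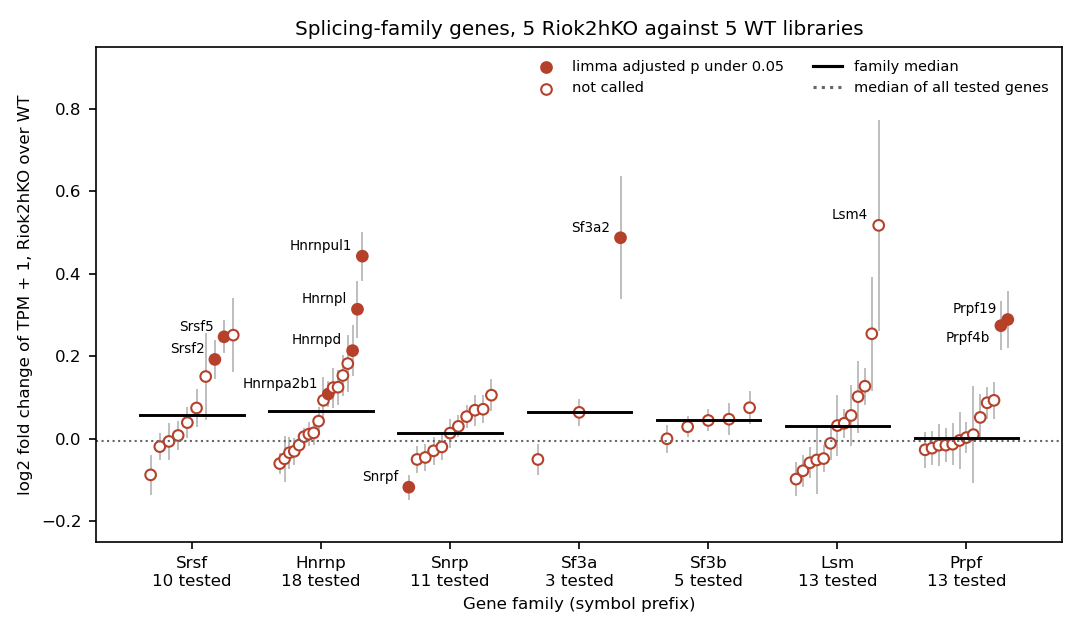
Log2 fold change of TPM + 1, Riok2hKO over WT, for the 73 tested members by family, with standard errors as grey bars; filled points have a limma adjusted p under 0.05, black lines are family medians and the dotted line is the median of all tested genes. Most points lie between −0.12 and 0.2, and Lsm4 has the highest value with the widest error and an open point.

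In WT replicate 1 the members were, as a rule, slightly high and not low. Of the 73 tested members, 52 (71.2%) were above the average of WT replicates 2 to 5 and 40 (54.8%) had their highest WT value there, where the shares were 55.02% and 26.6% of all tested genes. The median deviation was 0.08 for members and 0.02 for all genes. The summed Snrp level of WT replicate 1 was 5848 TPM, while the other WT libraries had 5451 to 5540 TPM.

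Against that, 3 members were at least 0.5 log2 units low in it (4.11%, and 4.58% of all tested genes): Lsm4 at −1.56, Sf3a2 at −0.85 and Srsf11 at −0.63. Prpf40b (−0.46), Srsf9 (−0.31) and Hnrnpl (−0.30) followed. By GC content of the longest annotated transcript, Sf3a2 (62.2%), Lsm4 (59.4%) and Prpf40b (58.3%) were the 3 highest of the 73 members. Snrpb (57.7%) came next and was not low (0.13), and Srsf11 (45.04%) was low without a high GC content. Of all tested genes with at least 60% GC, 14 of 391 (3.58%) were at least 1 log2 unit low in WT replicate 1, where the share in the lower GC classes was 0.857% to 1.36%. Lsm4 lies in the class from 55% to under 60% GC, where the share was 1.30%. Sf3a2, the only member in the highest class, was less than 1 log2 unit low.

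The most GC-rich stretches of the coding sequence are shown for the pair of members that were lowest in WT replicate 1 against the other WT libraries and for Snrpb, which is nearly as GC-rich and was not low. Each is the 100-base coding window with the highest GC content, from GENCODE M21 transcripts (GRCm38, the mm10 assembly), and capitals mark runs of at least 6 G or C.
Lsm4: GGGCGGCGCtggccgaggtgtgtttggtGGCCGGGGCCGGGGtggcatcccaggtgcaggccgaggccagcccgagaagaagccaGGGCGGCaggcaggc
Sf3a2: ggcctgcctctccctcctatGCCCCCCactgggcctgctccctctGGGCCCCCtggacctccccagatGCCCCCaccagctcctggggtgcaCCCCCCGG
Snrpb: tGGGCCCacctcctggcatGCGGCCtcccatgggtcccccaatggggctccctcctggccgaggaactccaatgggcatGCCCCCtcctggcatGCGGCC
The Lsm4 window (chromosome 8, plus strand) spans bases 309 to 408 of a coding sequence of 414 bases, with 76% GC. The Sf3a2 window (chromosome 10, plus strand) spans bases 772 to 871 of 1455, with 75% GC, and the Snrpb window (chromosome 2, minus strand) bases 566 to 665 of 693, with 71% GC. Windows richer than that of Lsm4 occurred in the transcripts of 21 members. With a trend on GC content and length removed from each library, the log2 fold change of Lsm4, Riok2hKO over WT, was 0.48 and that of Sf3a2 0.46. The part of base composition in the low values of WT replicate 1 was not tested.

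**Figure D2:**
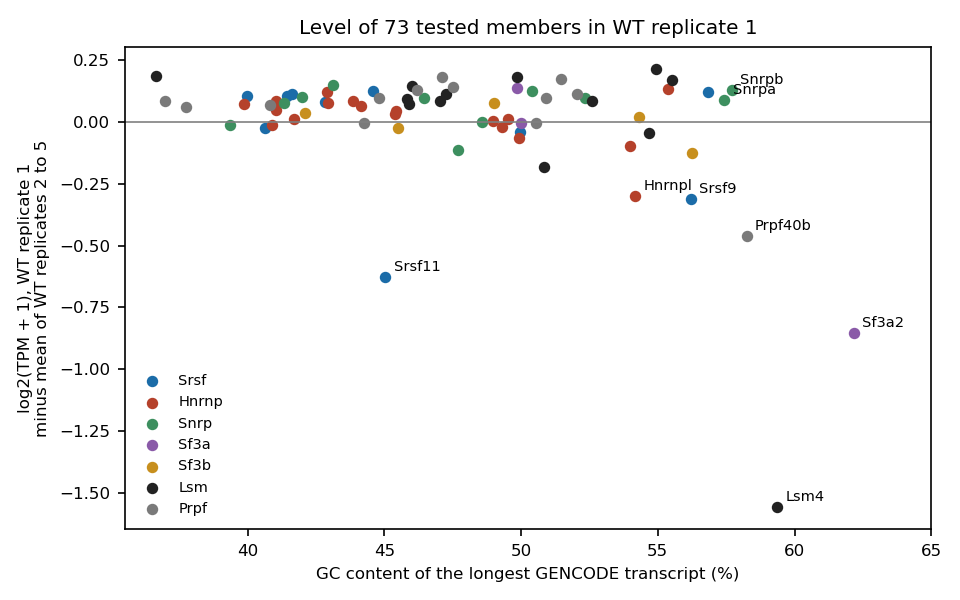
Deviation of WT replicate 1 from the mean of WT replicates 2 to 5, on the log2(TPM + 1) scale, against the GC content of the longest annotated transcript in percent, for the 73 tested members coloured by family. Most members lie just above 0, and Lsm4, Sf3a2 and Srsf11 lie at least 0.5 below it.

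Among SR proteins, 2 of 10 tested members rose, 0 fell, and the family median was 0.06 (0.04 without WT replicate 1). Of all tested genes, 9.58% rose and 7.55% fell. Srsf5 (chromosome 12, 80945495 to 80950507, mm10), an SR protein that binds exonic enhancers, was at 229.8, 246, 258, 239 and 246 TPM in Riok2hKO replicates 1 to 5, against 220.3, 213, 201, 198 and 196 TPM in WT replicates 1 to 5. Every Riok2hKO library was above every WT library, and the log2 fold change was 0.25 (SE 0.040, limma adjusted p = 0.00176), with 0.27 (adjusted p = 0.000334) without WT replicate 1. Srsf2 (chromosome 11, 116849897 to 116853675), which also promotes exon inclusion from enhancers and is recurrently mutated in human myeloid neoplasms, was at 114, 127, 114, 123 and 128 TPM in Riok2hKO and 103, 110.5, 97.5, 109.95 and 108 TPM in WT. The lowest Riok2hKO library exceeded the highest WT library, and the log2 fold change was 0.19 (SE 0.046, adjusted p = 0.015). After removal of a trend of each library on GC content and length, Srsf2 was at 0.12 with an adjusted p of 0.129 and was not called.

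The most abundant SR protein transcript was Srsf3, which encodes the smallest SR protein and one that also serves mRNA export, at 547 ± 21.2 TPM in Riok2hKO and 555 ± 20.2 TPM in WT (SD, n = 5 each). Its log2 fold change had a 95% interval of −0.09 to 0.05. Srsf1, Srsf4, Srsf6, Srsf7 and Srsf10, SR proteins of moderate level, had log2 fold changes between −0.09 and 0.07 and none was called. Srsf9 had 24.1, 24.3, 28.3, 23.5 and 22.2 TPM in Riok2hKO and 16.9, 20.8, 23.2, 23.2 and 18.3 TPM in WT, and its log2 fold change of 0.25 did not pass (adjusted p = 0.0776, and 0.131 without WT replicate 1). The Srsf9 ranges overlapped.

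The mean of Srsf11, another SR-related protein, turned on 1 library. Its TPM was 115, 116, 118, 117 and 119.9 in Riok2hKO and 74.2, 112, 114, 117 and 118 in WT, so that WT replicate 1 alone was low and the other 4 WT libraries lay within or next to the Riok2hKO range. The log2 fold change of 0.15 (95% interval −0.08 to 0.38, adjusted p = 0.361) became 0.02 (−0.04 to 0.09, adjusted p = 0.615) without that library.

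Among the hnRNPs, 4 of 18 rose (22.2%, where 9.58% of all tested genes rose) and 0 fell, and only 2 rose when any 1 of Riok2hKO replicates 3 and 5 and WT replicates 2 and 3 was left out. The family median was 0.07 with and without WT replicate 1. Hnrnpul1 (chromosome 7, 25721161 to 25756268), an hnRNP U-like protein with roles in RNA processing and the DNA damage response, was at 20.1, 21.99, 22.8, 22.5 and 22.8 TPM in Riok2hKO, against 15.03, 15.97, 15.4, 15.3 and 18.2 TPM in WT. The groups did not overlap, the Riok2hKO mean was 138% of the WT mean, and the log2 fold change was 0.44 (SE 0.059, limma adjusted p = 0.000511). Hnrnpl (chromosome 7, 28808546 to 28822268), which binds CA-rich RNA and silences the variable exons of CD45 in T cells, was at 25.1, 28.7, 26.5, 26.8 and 27.3 TPM in Riok2hKO, against 17.97, 24.02, 21.02, 21.9 and 22.5 TPM in WT. WT replicate 1 was the lowest library and the groups did not overlap; the log2 fold change was 0.31 (SE 0.069, adjusted p = 0.0091) and 0.25 (SE 0.053, adjusted p = 0.00587) without it.

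Hnrnpd, also called AUF1 and known for binding AU-rich elements of unstable mRNAs such as those of cytokines, was a low transcript at 5.64, 5.95, 5.6, 5.32 and 5.52 TPM in Riok2hKO and 4.73, 4.53, 4.68, 4.35 and 5.22 TPM in WT. All Riok2hKO libraries were above all WT libraries, by a narrow margin over WT replicate 5, and the log2 fold change was 0.21 (SE 0.062, adjusted p = 0.0336). The call was lost when any of 8 libraries was left out (adjusted p from 0.0555 to 0.0742), namely Riok2hKO replicates 1, 2, 3 and 5 and WT replicates 1, 2, 3 and 4. With the GC and length trend removed its log2 fold change was 0.10 (adjusted p = 0.362).

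Hnrnpa2b1, an abundant exon-silencing hnRNP, was at 700.4, 687, 696, 688 and 753 TPM in Riok2hKO and 685, 664, 644, 656 and 619 TPM in WT. Riok2hKO replicate 5 was far above the other 4, whose lowest value exceeded WT replicate 1 by under 2 TPM. The log2 fold change was 0.11 (SE 0.032, adjusted p = 0.0374), and it was 0.08 (adjusted p = 0.0691) without Riok2hKO replicate 5. The call was also lost without Riok2hKO replicates 1, 3 or 4 or without WT replicates 2, 3, 4 or 5 (adjusted p from 0.0521 to 0.0817). Hnrnpa3, a close relative, was at 43.2, 46.6, 43.5, 45.6 and 49.2 TPM in Riok2hKO and 42.6, 40.3, 37.9, 39.8 and 44.1 TPM in WT, with overlapping ranges. It had a log2 fold change of 0.15 (adjusted p = 0.0579) and was called without WT replicate 1 (0.17, adjusted p = 0.0468).

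The most abundant hnRNP transcripts were not called. Hnrnpa1, the archetypal exon silencer, was at 1819 ± 51.3 TPM in Riok2hKO and 1839 ± 32.2 TPM in WT, with a 95% interval of the log2 fold change of −0.06 to 0.03. Hnrnpk, a poly(C)-binding hnRNP, was at 1106 ± 16.8 TPM in Riok2hKO and 1103 ± 28.6 TPM in WT (−0.04 to 0.05), and Hnrnpf, which binds G-rich RNA, at 1030.5 ± 53.5 TPM in Riok2hKO and 1052 ± 21.5 TPM in WT (−0.10 to 0.04). For these 3 the intervals leave room for changes of up to about 0.1 on the log2 scale only. The other 10 hnRNP genes that were not called in either fit had log2 fold changes between −0.06 and 0.18. Hnrnpa1 has many processed copies in the mouse genome, and RSEM divides reads that fit several genes by estimation, so its level is uncertain.

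**Figure D3:**
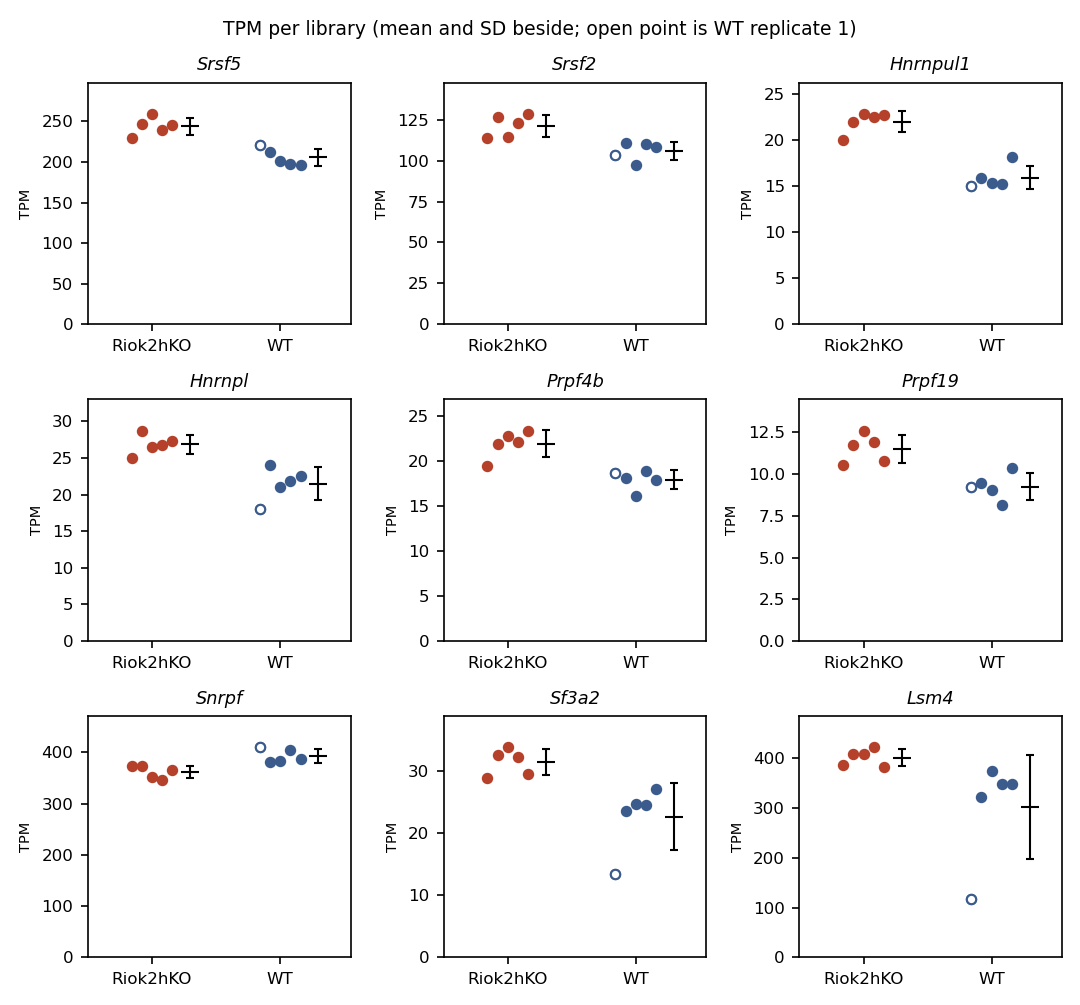
TPM in each library for 8 called members and Lsm4, Riok2hKO left of WT, with the mean and SD beside the points and WT replicate 1 drawn as an open point; axes start at 0. All Riok2hKO points lie above the WT points for 8 genes and below them for Snrpf, and the open point falls away from the other WT points for Lsm4 and Sf3a2.

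Of the 11 tested Snrp genes, 0 rose and 1 fell, where 9.58% of all tested genes rose and 7.55% fell. The family median was 0.01 in both fits. Snrpf (chromosome 10, 93583029 to 93589658), 1 of the proteins of the Sm ring, was at 373, 373, 353, 346 and 366 TPM in Riok2hKO, against 409, 381, 383, 404 and 387 TPM in WT. The groups did not overlap, the Riok2hKO mean was 92.1% of the WT mean, and the log2 fold change was −0.12 (SE 0.030, limma adjusted p = 0.0203). It was −0.10 (adjusted p = 0.0325) without WT replicate 1, and the call was lost without Riok2hKO replicate 3 (adjusted p = 0.0520) or 4 (adjusted p = 0.0523).

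No other Sm ring gene fell. Snrpd1 was at 441, 423, 437, 426 and 448 TPM in Riok2hKO and 450.1, 401, 416, 411 and 394 TPM in WT, where WT replicate 1 was the highest library of all 10. Its log2 fold change was 0.07 (adjusted p = 0.181) with all libraries and 0.10 (adjusted p = 0.0188) without WT replicate 1. Snrpd3 had 359 ± 19 TPM in Riok2hKO and 333 ± 12.6 TPM in WT (0.11, adjusted p = 0.0826), and Snrpd2 had 608 ± 14.7 and 586 ± 21.03 TPM (0.05, adjusted p = 0.212). Snrpg, the most abundant of the family at 1126 ± 14.9 TPM in Riok2hKO and 1104 ± 44.6 TPM in WT, had a 95% interval of −0.03 to 0.09, and those of Snrpb and Snrpe were −0.12 to 0.02 and −0.10 to 0.04. Snrpa and Snrpc of the U1 snRNP and Snrpa1 and Snrpb2 of the U2 snRNP had log2 fold changes between −0.05 and 0.07 and none was called. Snrpg and Snrpe have processed copies, and Snrpb shares sequence with Snrpn, so their levels carry the same uncertainty as that of Hnrnpa1.

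In the SF3a and SF3b complexes of the U2 snRNP, 1 of 8 genes rose, where 9.58% of all tested genes rose. Sf3a2 (chromosome 10, 80798735 to 80804922), a subunit of SF3a, was at 28.8, 32.6, 33.8, 32.3 and 29.6 TPM in Riok2hKO and 13.4, 23.6, 24.7, 24.6 and 27.1 TPM in WT. All Riok2hKO libraries were above all WT libraries, and WT replicate 1 was far below the other 4. The log2 fold change was 0.49 (SE 0.149, limma adjusted p = 0.042) and, without WT replicate 1, 0.32 (SE 0.058, adjusted p = 0.00285). The call was lost when any other library except WT replicates 3 and 5 was left out (adjusted p from 0.0509 to 0.0898).

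Its partners were not called. Sf3a1 was at 69.02 ± 2.35 TPM in Riok2hKO and 65.98 ± 1.399 TPM in WT (95% interval −0.01 to 0.14), and Sf3a3 at 180 ± 2.95 TPM in Riok2hKO and 187 ± 10.6 TPM in WT (−0.13 to 0.03). Sf3b1, which encodes the branch-point protein recurrently mutated in human myelodysplastic syndromes, was at 100.01 ± 4.58 TPM in Riok2hKO and 96.7 ± 3.42 TPM in WT (−0.04 to 0.13). Sf3b2 to Sf3b5 had log2 fold changes between −0.00036 and 0.07, and none of the 5 Sf3b genes was called in either fit.

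Lsm genes gave 0 calls of 13 with all libraries, and 2 rises without WT replicate 1. Of all tested genes, 17.1% were called with all libraries and 9.99% rose without WT replicate 1. Lsm4 (chromosome 8, 70673231 to 70678752), a subunit shared by the U6 ring and the cytoplasmic Lsm1 to Lsm7 decay ring, was at 387, 408, 409, 422 and 382 TPM in Riok2hKO, against 117, 323, 374, 348 and 348 TPM in WT. Every Riok2hKO library was above every WT library, and WT replicate 1 was far below the other WT libraries, at −1.56 on the log2 scale from their mean. With it the log2 fold change was 0.52 with a wide error (SE 0.256, 95% interval −0.04 to 1.07, limma adjusted p = 0.191); without it the value was 0.21 (SE 0.042, 0.12 to 0.30, adjusted p = 0.0049). Because WT replicate 1 was singled out by its low Lsm4 level, the values of Lsm4 without it are a description and not an independent test. The Riok2hKO mean was 133% of the WT mean with all libraries and 115% without WT replicate 1. A two-sided exact permutation test over all 10 libraries gave p = 0.00794, the smallest value that the 252 assignments allow. This test uses the WT replicate 1 value for which Lsm4 was chosen, so its p is a description too. The p restates that the groups did not overlap, which held for 14.6% of all tested genes.

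Of the other proteins of these rings, Lsm1, Lsm2, Lsm3, Lsm5, Lsm6 and Lsm7 were not called in either fit, and Lsm8 was not analysed here. Lsm2, Lsm3, Lsm5, Lsm6 and Lsm7, which stand in both rings, had log2 fold changes between −0.08 and 0.04, and Lsm1, particular to the decay ring, was at 47.03 ± 2.24 TPM in Riok2hKO and 50.4 ± 1.62 TPM in WT (−0.10, adjusted p = 0.124). Lsm7, the most abundant Lsm transcript, had 446 ± 14.8 TPM in Riok2hKO and 464 ± 26.4 TPM in WT, with a 95% interval of −0.14 to 0.02. Lsm12, an Lsm-domain protein outside these rings, was at 157, 139, 160.2, 148 and 149 TPM in Riok2hKO and 145, 132, 129.7, 143 and 138 TPM in WT. The Lsm12 ranges overlapped, and its log2 fold change was 0.13 (adjusted p = 0.0703) with all libraries and 0.15 (adjusted p = 0.0411) without WT replicate 1.

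The U7 snRNP genes Lsm10 and Lsm11, which serve histone mRNA processing, and Lsm14a and Lsm14b, which act in mRNP granules, had log2 fold changes between 0.03 and 0.25 with adjusted p of at least 0.23. Lsmd1 carries the prefix but is listed by RefSeq under the newer symbol Naa38, an N-terminal acetyltransferase subunit; it was at 124 ± 4.97 TPM in Riok2hKO and 128 ± 1.81 TPM in WT and was not called. Summed TPM of the 13 Lsm genes did not overlap between groups (1940.4 to 1983 TPM in Riok2hKO and 1803 to 1923 TPM in WT). Without Lsm4 the sums overlapped, at 1535 to 1574 TPM in Riok2hKO and 1536 to 1685 TPM in WT.

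Of the 13 Prpf genes, 2 rose and 0 fell, where 9.58% of all tested genes rose and 7.55% fell. The family median was 0.0026 (0.01 without WT replicate 1). Prpf4b (chromosome 13, 34874820 to 34906064), a kinase that phosphorylates proteins of the tri-snRNP, was at 19.4, 21.9, 22.8, 22.1 and 23.3 TPM in Riok2hKO, against 18.6, 18.1, 16.1, 18.9 and 17.8 TPM in WT. Prpf19 (chromosome 19, 10895231 to 10909559), the ubiquitin ligase of the complex that activates the spliceosome, was at 10.6, 11.8, 12.6, 11.9 and 10.8 TPM in Riok2hKO, against 9.22, 9.46, 9.05, 8.16 and 10.4 TPM in WT. Neither gene's groups overlapped. The log2 fold changes were 0.27 (SE 0.059, limma adjusted p = 0.00853) and 0.29 (SE 0.069, adjusted p = 0.014), and both genes stayed past the threshold in all 20 alternative fits.

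The core of the tri-snRNP was not called. Prpf8, which holds the catalytic centre, was at 55.95 ± 1.86 TPM in Riok2hKO and 57.1 ± 3.33 TPM in WT (95% interval −0.12 to 0.07). Prpf3, Prpf4, Prpf6 and Prpf31, the other tri-snRNP proteins of the family, had log2 fold changes between −0.02 and 0.05. Prpf38a, the most abundant at 106 ± 3.68 TPM in Riok2hKO and 106 ± 4.797 TPM in WT, had a 95% interval of −0.08 to 0.08. Prpf38b was at 48.7, 48.9, 50.1, 51.4 and 51.2 TPM in Riok2hKO and 51.9, 47.9, 45.9, 44.2 and 44.8 TPM in WT, and WT replicate 1 was the highest library of all. Its log2 fold change was 0.09 (adjusted p = 0.189), and it was 0.13 (adjusted p = 0.0356) without that library. Prpf18, Prpf39 and Prpf40b were not called in either fit.

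Levels of the members differed widely between genes. Mean TPM over all libraries ran to 1829 for Hnrnpa1, and the 7 families together took 1.67% to 1.75% of all TPM. The median coefficient of variation of a member was 4.09% among Riok2hKO libraries, 4.70% among WT libraries and 3.57% among WT libraries without replicate 1, where all tested genes had 6.95%, 7.92% and 7.07%. Summed TPM of the 7 families was 17098 ± 304 in Riok2hKO and 16872 ± 259 in WT, with overlapping ranges. Sums of the single families overlapped between groups in 6 of the 7, Lsm being the exception.

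**Figure D4:**
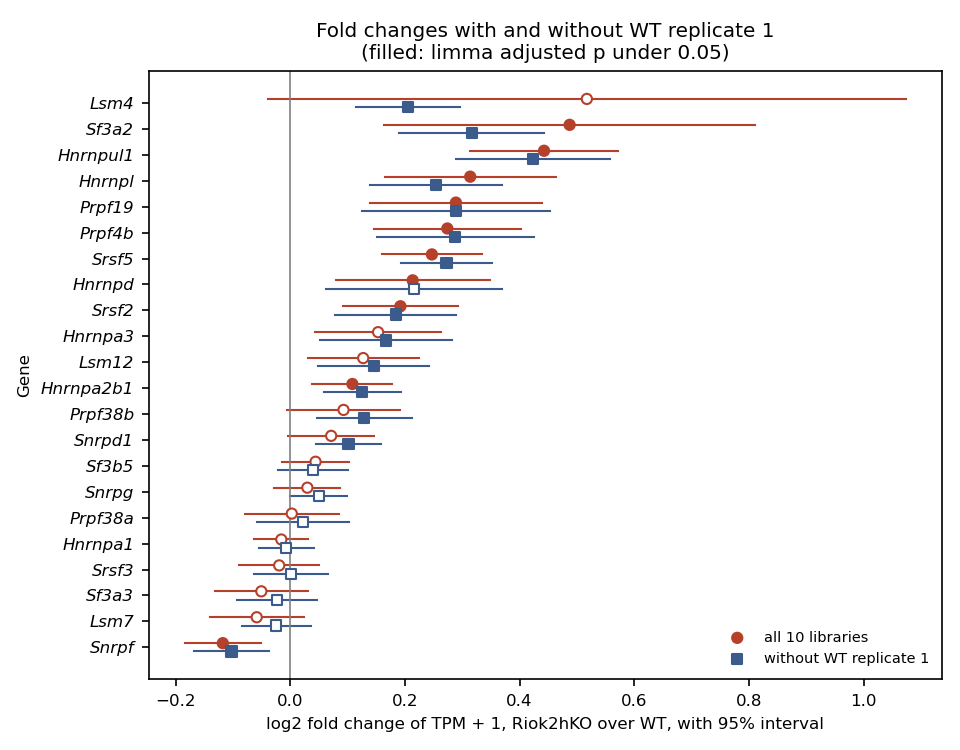
Log2 fold change of TPM + 1, Riok2hKO over WT, with 95% intervals for Lsm4, every member called in either fit and the most abundant member of each family; red circles use all 10 libraries and blue squares leave out WT replicate 1, and filled marks have a limma adjusted p under 0.05. Lsm4 shows the largest shift between the fits, 0.52 against 0.21, with a much narrower interval in the second.

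Genes of the same machinery outside the 7 prefixes were read from 8 lists by role. Of 23 tested snRNP proteins, 2 rose and 0 fell (3 and 0 without WT replicate 1): Ddx23, the helicase of the U5 snRNP, at 8.43 ± 0.858 TPM in Riok2hKO and 6.1 ± 0.405 TPM in WT (0.41, SE 0.073, limma adjusted p = 0.00324), and Sart3, which recycles U6, at 23.3 ± 2.75 and 17.7 ± 1.81 TPM (0.38, adjusted p = 0.0112). Of 12 factors that recognise the branch point and 3′ splice site, 2 rose and 0 fell. Sf1, the branch point binding protein, was at 112 ± 2.35 TPM in Riok2hKO and 99.8 ± 2.32 TPM in WT (0.16, adjusted p = 0.00333), and it was 0.06 (adjusted p = 0.290) with the GC and length trend removed. U2af2, which binds the polypyrimidine tract, was at 88.8 ± 2.95 TPM in Riok2hKO and 75.9 ± 8.39 TPM in WT (0.23, adjusted p = 0.034); without WT replicate 1 the value was 0.17 (adjusted p = 0.0206), and the call was lost without any of Riok2hKO replicates 2 to 5 or WT replicates 2 and 4 (adjusted p from 0.0512 to 0.0816).

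Of 26 factors of the Prp19 complex and the catalytic stage, Cwc15 rose (0.15, adjusted p = 0.00871) and Plrg1, a partner of Prpf19, fell (−0.12, adjusted p = 0.0379), and 3 rose and 1 fell without WT replicate 1. The call of Plrg1 was lost without any of Riok2hKO replicates 1, 3 and 4 or WT replicates 2 to 5 (adjusted p from 0.0514 to 0.0917). In the exon junction complex and export list 4 of 17 rose with all libraries, among them Srrm2, a large SR-related scaffold of nuclear speckles, at 46.1 ± 2.78 TPM in Riok2hKO and 36.6 ± 1.56 TPM in WT (0.32, adjusted p = 0.00102), and Pnn at 55.6 ± 1.75 and 46.9 ± 2.699 TPM (0.24, adjusted p = 0.00356). Casc3 and Srrm1 were the others (0.23 and 0.11). Without WT replicate 1 the count was again 4 but not of the same genes: Casc3 was not called (adjusted p = 0.0625) and Ncbp2, a cap-binding protein named after its values were seen, was (0.15, adjusted p = 0.0129, against 0.106 with all libraries). For Casc3 and Srrm1, with single libraries left out, the adjusted p reached 0.0836 (without Riok2hKO replicate 4) and 0.0859 (without WT replicate 2), and each lost its call in at least 7 of these 10 fits and with the GC and length trend removed (adjusted p = 0.169 and 0.873). These shares, 2 of 23, 2 of 12, 2 of 26 and 4 of 17, stand beside 17.1% of all tested genes.

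Among 10 tested kinases of SR proteins and splicing, Dyrk3 alone was called, at 8.86, 9.52, 11.3, 14.6 and 10.2 TPM in Riok2hKO and 2.75, 5.96, 7.87, 5.9 and 5.86 TPM in WT. Groups did not overlap, and WT replicate 1 was the lowest; the log2 fold change was 0.87 (SE 0.197, limma adjusted p = 0.0105) and 0.68 without it (adjusted p = 0.003). Srpk2, an SR protein kinase, had 5.56 ± 0.386 TPM in Riok2hKO and 6.5 ± 0.616 TPM in WT (−0.19, adjusted p = 0.09). These lists too stand beside 17.1% of all tested genes called, 9.58% higher and 7.55% lower. In the SMN list, whose proteins load the Sm ring onto snRNAs, 0 of 15 rose and 3 fell: Gemin2 (−0.18, adjusted p = 0.0354), Gemin4 (−0.17, 0.0371) and Gemin6 (−0.14, 0.0496). Without WT replicate 1, 0 of these 3 were called (adjusted p = 0.0607, 0.0621 and 0.085), and each also lost its call in the majority of the fits that left out another library. Of 8 partners of the Lsm1 to Lsm7 ring in mRNA decay, the decapping genes Dcp1a rose (0.23, adjusted p = 0.0305) and Dcp1b fell (−0.29, adjusted p = 0.0489); without WT replicate 1 the values were 0.21 (0.0564) and −0.37 (0.0089), and with any other library left out their adjusted p reached at most 0.0779 and 0.104.

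Of 39 tested splicing regulators outside the 7 families, 9 rose and 1 fell (8 and 1 without WT replicate 1), where 17.1% of all tested genes were called. Raly, Khdrbs1, Hnrpll and Ybx1 had larger log2 fold changes than any called member of the 7 families. Hnrpll, an hnRNP L paralogue listed under its older symbol and so outside the Hnrnp prefix, drives CD45 exon silencing in activated T cells. It was at 14.4, 16.9, 15.5, 17.1 and 18.01 TPM in Riok2hKO, against 9.37, 9.19, 11.6, 10.3 and 12.2 TPM in WT. The groups did not overlap, and the log2 fold change was 0.60 (SE 0.084, limma adjusted p = 0.000759; 0.56 without WT replicate 1). Its paralogue Hnrnpl was called in the same direction at a smaller fold change, and the difference between the paralogues was not tested.

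Raly, related to hnRNP C, was at 74.9, 64.5, 62.2, 67.7 and 70.6 TPM in Riok2hKO, against 18.4, 39.7, 38.8, 31.3 and 40.1 TPM in WT. WT replicate 1 was the lowest and the groups were far apart; the log2 fold change was 1.04 (SE 0.174, adjusted p = 0.00214) and 0.85 (adjusted p = 1.71e-05) without it. Khdrbs1 (Sam68), a signal-responsive splicing regulator, was at 40.7, 46.1, 45.9, 52.1 and 53.5 TPM in Riok2hKO and 19.1, 26.9, 35, 32.4 and 29.7 TPM in WT (0.74, SE 0.135, adjusted p = 0.00358; 0.60 without WT replicate 1). Ybx1, a Y-box RNA-binding protein, was at 111 ± 11.9 TPM in Riok2hKO and 74.6 ± 9.095 TPM in WT (0.56, adjusted p = 0.00138).

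Sfpq (0.29), Celf1 (0.41), Ddx17 (0.20) and Pcbp1 (0.16) also rose, with adjusted p between 0.00938 and 0.0347, and the calls of Ddx17 and Pcbp1 were lost with some libraries left out (adjusted p up to 0.0525 and 0.0841) and with the GC and length trend removed (0.408 and 0.0586). Celf2, a CELF-family splicing regulator of lymphocytes, fell to 28.4 ± 2.03 TPM in Riok2hKO, against 33.4 ± 1.45 TPM in WT (−0.23, adjusted p = 0.0127).

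**Figure D5:**
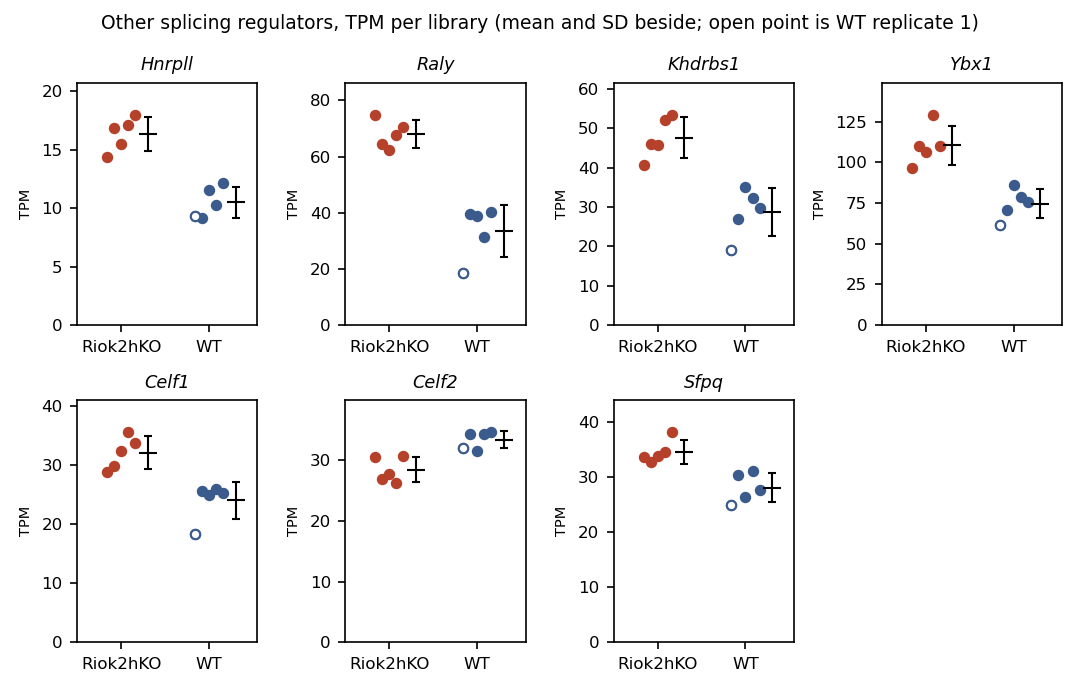
TPM in each library for 7 splicing regulators outside the 7 prefixes, Riok2hKO left of WT, with the mean and SD beside the points and WT replicate 1 as an open point; axes start at 0. Celf2 is the only 1 of the 7 with lower Riok2hKO values, and the open point is the lowest for Raly, Khdrbs1, Ybx1, Celf1 and Sfpq.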

How the data were processed

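Sorted IL-22+ CD4+ cells were profiled by SMART-seq2, which reads whole transcripts without recording their strand. Per the labels' protocols, the authors mapped read pairs with Bowtie to mm10 transcripts and deposited TPM estimated by RSEM (version 1.2.8 per the submitters' processing notes). No Bowtie version is stated in the sources used. TPM is a share of each library, so a rise of some transcripts lowers the share of others, and the depth behind a value is unknown. RSEM divides reads that fit several genes by estimation, and a gene's TPM sums its isoforms, so exon choice within these genes was not measured.

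Of 23420 rows, 27 held a date in place of a symbol and were left out (0.107% to 0.114% of TPM). Coordinates came from RefSeq for 23234 (99.3%) of 23393 symbols, and GC content and length from GENCODE for 23025 (98.4%). Libraries were grouped from their labels. The test was limma 3.58.1 (R 4.3.3; mean-variance trend, genotype as the term) of log2(TPM + 1) for genes reaching 1 TPM in 5 or more libraries, with Benjamini-Hochberg adjustment over all tested genes; rose and fell refer to an adjusted p under 0.05, and no set test was made. Fold changes are on this scale and come out too small for low genes. The test was tried first on simulated data. Figures used matplotlib 3.10.9 in Python 3.11.15.

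Members and lists were chosen with earlier results of these data known. Named genes are Riok2, Lsm4, every member called with or without WT replicate 1, the most abundant member of each family, members at least 1 log2 unit away in WT replicate 1, and up to 4 genes of each list by p; other named genes, among them Srsf9, Srsf11, Snrpb, Prpf40b, Sfpq, Celf1, Celf2, Ddx17 and Pcbp1, were chosen after their values were seen. Some genes that these rules or lists take are not reported here. Alternatives covered the pseudocount, filter, scaling, variance model, library weights, a detected-gene covariate, the replicate number as a block, a GC and length trend, and each library left out in turn.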

Additional observations from a re-analysis of the deposited data

Results flagged for a closer look

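In 60 groups of 5 values, 4 had 1 library separated from its nearest neighbour by more than 0.71 of the group's whole range. Chance flags about 1 in 20 groups. The screen took Riok2, Lsm4, members called in either fit, the most abundant member of each family and the family sums, in Riok2hKO and in WT. Other members were not screened. Among them was Srsf11, at 74.2 TPM in WT replicate 1 and 112 to 118 TPM in the other WT libraries. Lsm4 was at 117.4 TPM in WT replicate 1, a gap of 0.799 of the WT range; since this low level had already singled out that library, the flag restates it and is no independent sign. Sf3a2 was at 13.38 TPM in WT replicate 1, a gap of 0.742 of the range. The summed TPM of the Snrp family was 5848 in WT replicate 1, above the other WT libraries by 0.774 of the range. Hnrnpa2b1 was at 752.7 TPM in Riok2hKO replicate 5, above the other Riok2hKO libraries by 0.794 of the range. Leaving out WT replicate 1 moved Lsm4 past the threshold and kept Sf3a2 past it, while leaving out Riok2hKO replicate 5 took Hnrnpa2b1 below it.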

How the results depend on the processing

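Hnrnpl, Hnrnpul1, Prpf19, Prpf4b and Srsf5 kept their calls in all 20 alternatives and Srsf2 in 19, all with rises. Over the 7 families, 6 to 11 members rose in the alternatives other than leaving out WT replicate 1 (13). Without the filter on low values, 2 Hnrnp and 0 Sf3a genes rose. With a mean of at least 10 TPM required, the median log2 fold change was 0.01394 for Hnrnp and −0.01149 for Lsm. Quantile normalization gave 1 Lsm rise. Without the mean-variance trend 0 Sf3a genes rose and 0 Snrp genes, hence 0 members, fell. The detected-gene covariate gave 4 Srsf rises, 1 Lsm rise (Lsm4), 0.80 for Lsm4 (limma adjusted p = 0.0102) and −0.0061 for Prpf38a. WT replicate 1, singled out by its low Lsm4 level, also had the most detected genes (14695). The Lsm4 value and call with this covariate are therefore a description and not an independent test. Removal of the GC and length trend gave 1 Srsf and 1 Snrp rise, medians of 0.02998 for Hnrnp and −0.02824 for Lsm, and 0.0076 for Srsf3. The causes of these shifts were not tested.

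With 1 library left out at a time, rises numbered 2 to 4 in Hnrnp, 0 to 1 in Sf3a, 0 to 2 in Lsm and 0 to 1 in Snrp, and falls 0 to 1 in Snrp and over all members. The Lsm median ran between −0.02504 and 0.05986, and the log2 fold changes of Lsm4 between 0.21 and 0.62, Prpf38a between −0.016 and 0.022 and Srsf3 between −0.038 and 0.0013. Over all tested genes, 990 rose and 780 fell; the counts were 843 and 951 after quantile normalization and 812 and 854 without the GC and length trend. With the replicate number as a block, 2 Hnrnp genes rose in place of 4, 8 members rose and 1 fell, and 880 genes rose and 564 fell. Same-numbered libraries did not deviate together (correlations −0.034 to 0.068, and 1 of 5 Riok2hKO libraries closest to its own number). The number was not used as a pairing in the main fit. These values cannot show whether same-numbered libraries shared an origin, which is not in the labels. TPM carries no read totals, which limits what can be said of low members such as Hnrnpd and Prpf40b.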
